A study of Homo sapiens with 16 samples.

Results

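Long noncoding RNAs are transcripts that are not translated, and the 7 described here are among the best known of them in B cells. They were chosen by name, and every count table held a row for each: MALAT1, NEAT1, MIR155HG, MIR17HG, GAS5, DLEU2 and PVT1, 7 of 62714 genes. Bulk RNA depleted of ribosomal RNA was sequenced from human lymphoma cell lines of B-cell origin, 4 in number. A lentiviral vector with Cas9 and a pool of guides was aimed at CREBBP, a histone acetyltransferase and transcriptional coactivator, or at the control site AAVS, so that every library comes from Cas9 targeted cells. The cells were kept as pools rather than clones, and each pool was left untreated (baseline) or cultured for 4 h with 10 ng/ml of the cytokine IL4, which signals through the transcription factor STAT6. This gave 16 libraries in 4 groups, named by target and treatment (AAVS or CREBBP, baseline or IL4), with 1 library of every line in each. SU-DHL4 is line 1 and DOHH2 line 4, whereas OCI-LY7 and SU-DHL10 are lines 2 and 3 in an order on which the sample labels contradict each other, so that these lines are called by number.

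These RNAs work in different ways. MALAT1 lies in nuclear speckles, bodies rich in splicing factors, and NEAT1 is the scaffold of paraspeckles, bodies that hold RNA-binding proteins. MIR155HG, MIR17HG and DLEU2 are host transcripts from which microRNAs are cut: miR-155, an activation-induced microRNA of lymphocytes, comes from MIR155HG, the miR-17 cluster from MIR17HG, which is amplified in some B-cell lymphomas, and miR-15a and miR-16 from DLEU2, which lies in the region of chromosome 13 often deleted in chronic lymphocytic leukaemia. GAS5 carries small nucleolar RNAs (snoRNAs) in its introns and accumulates when growth or translation stops. PVT1 is the neighbour of the growth gene MYC.

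On GRCh38 and by GENCODE annotation, MALAT1 spans chr11:65497640-65508073 and NEAT1 chr11:65422774-65445540, both on the plus strand and each with its exons merging into 1 block. MIR155HG lies at chr21:25561810-25575168 and MIR17HG at chr13:91347686-91397592, both on the plus strand. GAS5 lies at chr1:173858559-173868882 and DLEU2 at chr13:49956670-50125720, both on the minus strand. All 7, PVT1 included, are annotated as long noncoding RNA genes.

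The mature microRNAs hosted by these transcripts are shown to say what each host carries, and were not measured here. The sequences are from RefSeq on GRCh38.p14, written 5′ to 3′, with the seed (bases 2 to 8), which pairs with target messages, in capitals. The 9 arms carry 6 different seeds. miR-155-5p, from MIR155HG, has a seed that no other arm shown here has. miR-17-5p and miR-20a-5p share a seed, as do miR-19a-3p and miR-19b-3p, while miR-18a-5p and miR-92a-3p have their own; miR-15a-5p and miR-16-5p share the remaining seed.
hsa-miR-155-5p: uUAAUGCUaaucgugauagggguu
hsa-miR-17-5p: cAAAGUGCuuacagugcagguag
hsa-miR-20a-5p: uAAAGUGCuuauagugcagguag
hsa-miR-18a-5p: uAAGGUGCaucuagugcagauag
hsa-miR-19a-3p: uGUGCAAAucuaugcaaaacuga
hsa-miR-19b-3p: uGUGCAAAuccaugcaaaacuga
hsa-miR-92a-3p: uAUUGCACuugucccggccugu
hsa-miR-15a-5p: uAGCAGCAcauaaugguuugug
hsa-miR-16-5p: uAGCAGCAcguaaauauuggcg

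The libraries measured the hosts and not the microRNAs. A list of 14 microRNA precursor genes that lie inside a host among the 7 was looked up in the tables, and all 14 had 0 counts in all 16 libraries, as did MIR612 inside NEAT1 and MIR3613 inside DLEU2, which were not on that list, so nothing is said here of the level of any mature microRNA.

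MIR155HG was the member with the largest change, and the 300 bases around its RefSeq start (250 before it and 50 after it) are shown because its level moved most. The RefSeq start lies inside the span that GENCODE gives the gene, and so does the whole window, which therefore need not precede every transcript of the gene. The window is chr21:25561895-25562194 on GRCh38.p14, plus strand.
MIR155HG promoter window: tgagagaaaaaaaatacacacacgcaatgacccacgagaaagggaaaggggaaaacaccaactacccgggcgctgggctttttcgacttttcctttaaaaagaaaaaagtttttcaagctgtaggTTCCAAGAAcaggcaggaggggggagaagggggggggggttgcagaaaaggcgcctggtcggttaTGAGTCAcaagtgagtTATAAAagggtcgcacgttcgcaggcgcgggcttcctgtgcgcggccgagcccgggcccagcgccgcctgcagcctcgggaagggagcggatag
The capitals mark 3 matches, searched on both strands: TTCNNNGAA, the general STAT motif, starting 125 bases before the start; TGANTCA, the AP-1 motif, starting 60 bases before it; and TATAAA, the TATA box, 44 bases before it. The longer spacing that STAT6 prefers, with 1 more base between TTC and GAA, CACGTG, the E-box, and the NF-kB motif had no match in this window. Such matches are common: of 35116 promoter windows of this length, 7.66% held TTCNNNGAA, 7.71% TGANTCA, 11.5% TATAAA and 6.44% the STAT6 spacing. A match is a description of these letters and not a bound site.

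Total counts per library ranged from 19649735 to 61981976 and were lowest in AAVS IL4, from 19649735 to 47716763. The targeted gene CREBBP had 269, 205, 360 and 246 CPM (counts per 1000000 counts of the library) in lines 1 to 4 of AAVS baseline, 315, 190, 315 and 379 CPM in AAVS IL4, 278, 191, 187 and 270 CPM in CREBBP baseline and 214, 69.9, 245 and 218 CPM in CREBBP IL4. The groups overlapped. A Cas9 edit need not remove the message, so these levels do not check the loss of the protein. The B-cell identity of the lines was visible in all groups, with 10 B-cell markers summing to between 3245 and 6056 CPM. Some transcripts of other cell types were higher in AAVS IL4. The sum of 13 T-cell markers was 122, 93.4, 235 and 43.2 CPM in lines 1 to 4 of AAVS IL4 and between 11.5 and 49.1 CPM in the other 12 libraries. Of the 13 genes, 10 were higher in every AAVS IL4 library than in any other library, and CD4, CD247 and TRAC were not. CD2, the only 1 of the 13 at 0 in AAVS baseline, was also at 0 in both CREBBP groups. It had 5.27, 1.89, 7.68 and 0.566 CPM in AAVS IL4. Markers of NK cells summed to 3.12 to 17.0 CPM in AAVS IL4 and at most 0.907 CPM elsewhere. Of these 5 genes, only NKG7 and GNLY were higher in every AAVS IL4 library than in any other library. The epithelial marker sum, nearly all from CDH1, was 2.12 to 34.9 CPM in AAVS IL4 and at most 0.295 CPM elsewhere. That of 10 myeloid markers was 7.42 to 25 CPM against 1.12 to 13.9 CPM, so these ranges overlapped. In line 4 it was 13.9 CPM at AAVS baseline and 12.6 CPM with IL4. Of the 10 myeloid genes, only LYZ was higher in every AAVS IL4 library than in any other library. The 6 fibroblast markers summed to 1.03 to 17.6 CPM in AAVS IL4 and 0.124 to 34.0 CPM elsewhere. The part of these transcripts in the results below was not tested. In bulk RNA, fewer cells of a type and less RNA per cell cannot be told apart.

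The 7 RNAs covered a wide span of abundance. Together they took between 0.185% and 1.77% of all counts of a library, and MALAT1 alone made up 47.4% to 84.7% of that share. Ranked among all genes, MALAT1 was between place 4 and place 83, NEAT1 between 20 and 1004, GAS5 between 127 and 1049, PVT1 between 1799 and 4218, DLEU2 between 3147 and 6482 and MIR17HG between 5984 and 11032. MIR155HG had the widest span of places, from 535 to 20097. Per length of exon, the scale on which genes can be compared, the median levels over 16 libraries were 271 CPM per kb for MALAT1, 54.7 for GAS5, 17.8 for NEAT1, 2.84 for DLEU2, 2.44 for PVT1, 0.892 for MIR17HG and 0.345 for MIR155HG. MALAT1 stood first in all 4 groups, with a range that touched that of the next member only in CREBBP IL4. GAS5 and NEAT1 overlapped in AAVS baseline, AAVS IL4 and CREBBP baseline, DLEU2 and PVT1 overlapped in all 4 groups, and MIR17HG and MIR155HG overlapped in the 3 groups other than AAVS IL4. In AAVS IL4, MIR155HG moved from the last place to the fourth, with a median of 34.5 CPM per kb that overlapped with GAS5 at 47.1.

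**Figure D1:**
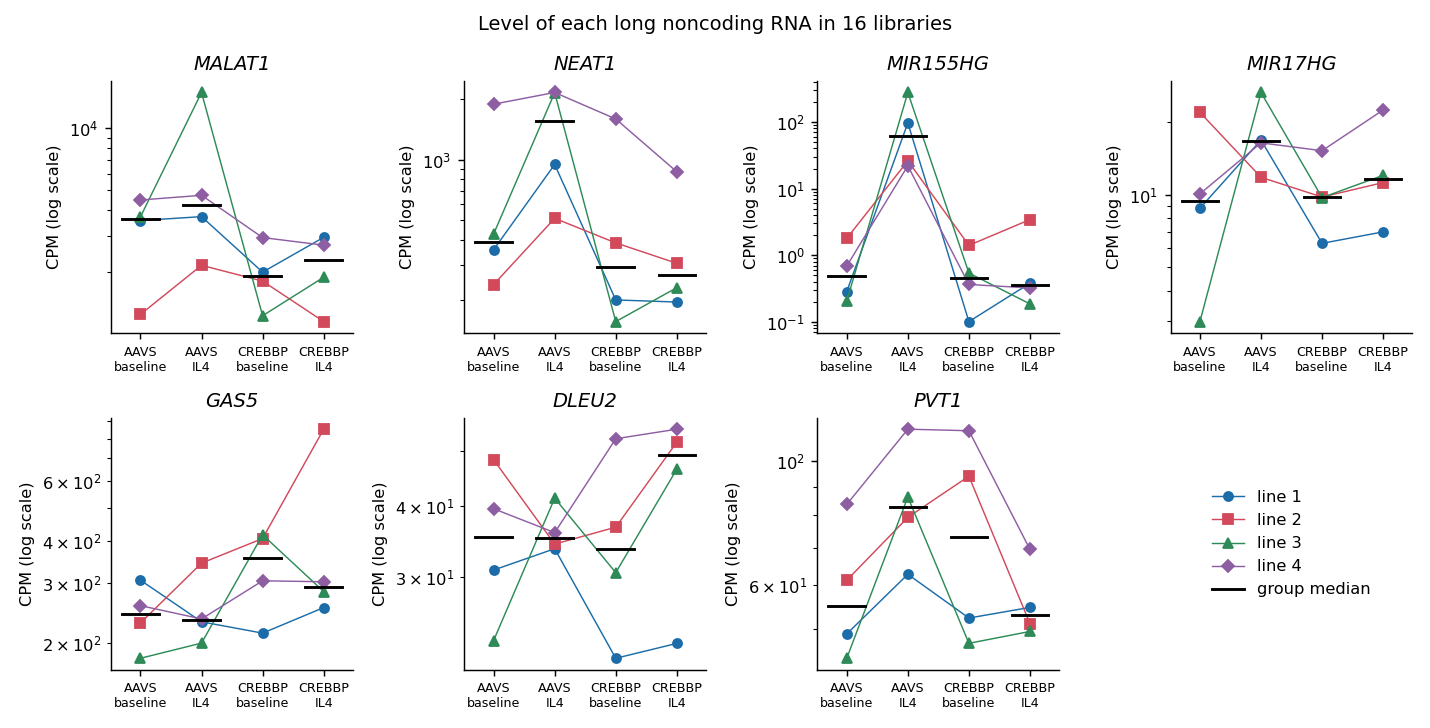
Level of each long noncoding RNA in CPM on a log axis in the 4 groups; coloured points are libraries, thin lines join the libraries of 1 line, and black bars are group medians. MIR155HG has 4 AAVS IL4 libraries between 22.0 and 277 CPM and 12 other libraries at 3.43 CPM or below, while the groups overlap for the other 6 RNAs.

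MIR155HG, the host of miR-155, was near absent at baseline and far higher in AAVS IL4. At AAVS baseline it had 0.285, 1.79, 0.205 and 0.687 CPM in lines 1 to 4, from 16, 73, 10 and 36 counts. With IL4 the AAVS pools had 96.6, 26.0, 277 and 22.0 CPM, from 2476, 884, 5442 and 1049 counts. All 4 AAVS IL4 libraries lay above all of the other 12, with line 3 highest and line 4 lowest, and the ratio of the CPM values was 339, 14.6, 1349 and 32.0 in lines 1 to 4. In the CREBBP pools the levels were 0.101, 1.4, 0.540 and 0.363 CPM without and 0.380, 3.43, 0.186 and 0.323 CPM with IL4. These groups overlapped, with lines 1 and 2 higher with IL4 and lines 3 and 4 lower.

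In edgeR's quasi-likelihood test, which compared libraries within lines and adjusted p-values over all genes tested (Benjamini-Hochberg), MIR155HG rose with IL4 in the AAVS pools by 6.62 ± 1.19 (SE) on the log2 scale, with an adjusted p of 0.0475 and a 95% interval from 3.77 to 9.48. It was the 1 member called of 7, against 2.4% of the 20310 genes tested in that comparison. In the CREBBP pools the log2 fold change was 0.44 ± 0.69 (95% interval -1.12 to 2.00), with an adjusted p of 0.944. With IL4, MIR155HG was lower in CREBBP than in AAVS pools by a log2 fold change of -6.64 ± 1.39 (95% interval -9.88 to -3.40), with an adjusted p of 0.0451, again the 1 member called of 7, against 4.39% of 19581 genes. At baseline the log2 fold change between CREBBP and AAVS pools was -0.23 (95% interval -1.63 to 1.18), with an adjusted p of 0.908.

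The test of whether IL4 acted differently in CREBBP and AAVS pools gave -6.01 ± 1.36 on the log2 scale for MIR155HG, with an unadjusted p of 0.000926 and an adjusted p of 0.0797. It did not pass the threshold of 0.05, and 0 of the 7 members did, against 0.638% of 21932 genes; 3 members had an unadjusted p under 0.05, against 13.3% of all genes, and DESeq2 called 1, beside 1100 of 21932 genes. The calls for MIR155HG were lost when some lines were left out, at log2 fold changes that stayed large. Without line 1 or line 4 the log2 fold change for IL4 in the AAVS pools was 5.87 or 7.48, with adjusted p-values of 0.179 and 0.108 by edgeR's quasi-likelihood test. Without line 1, 3 or 4 the value for CREBBP against AAVS with IL4 was -5.97, -5.41 or -7.10, with adjusted p-values of 0.184, 0.133 and 0.117 by the same test of edgeR. Without line 2 the difference in response was -7.89, with an adjusted p of 0.0323.

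MIR155HG and the T-cell marker sum had the same order of lines in AAVS IL4: line 3 highest, then line 1, line 2 and line 4. Among the 12 other libraries, the 3 of line 2 had the highest MIR155HG levels, 1.4 to 3.43 CPM, and the 3 highest T-cell marker sums, 42.1 to 49.1 CPM. Of all 19646 genes that reached 1 CPM in a library, 5.737% had all AAVS IL4 libraries above the other 12, as MIR155HG did. The part of the T-cell transcripts in the MIR155HG level was not tested.

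**Figure D2:**
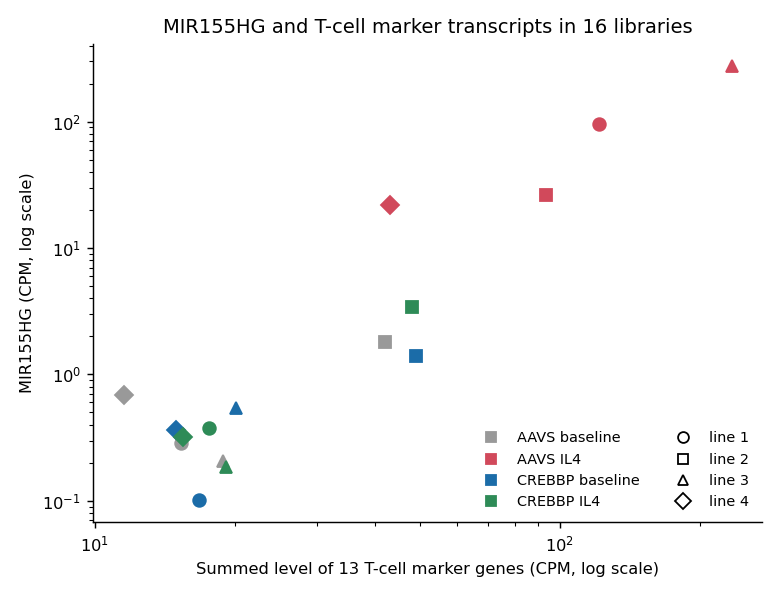
MIR155HG against the summed level of 13 T-cell marker genes, both in CPM on log axes, with 1 point per library, colour for the group and shape for the line. The 4 AAVS IL4 libraries lie highest on the MIR155HG axis, and 3 of them, at 93.4, 122 and 235 CPM, lie beyond all other libraries on the marker axis, where line 4 stands at 43.2 CPM.

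The genes most like MIR155HG over the 16 libraries, by Pearson's r of log2 CPM after the mean of each line was removed, were MIR222HG (r = 0.98), host of the miR-221 and miR-222 cluster, GRAMD2B (r = 0.98) and RAB31 (r = 0.98), a small GTPase. MIR222HG had 9.05, 3.8, 30.6 and 3.54 CPM in AAVS IL4 and at most 0.248 CPM in every other library. RAB31 and GRAMD2B were at 0 in all 4 AAVS baseline libraries and at 0.943 to 26.3 CPM and 0.501 to 4.38 CPM in AAVS IL4. These r values were the highest of 17332 genes and all rest on the same 4 libraries.

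NEAT1, the paraspeckle scaffold, was higher with IL4 in all 4 AAVS pools, going from 356.6 to 946 CPM in line 1, from 239 to 511 CPM in line 2, from 427 to 2153 CPM in line 3 and from 1887 to 2157 CPM in line 4. In CREBBP pools the levels were 201, 385, 157 and 1593 CPM without and 196, 305, 231 and 869.8 CPM with IL4. The groups overlapped because line 4 was far above the other lines in 3 of them, but within each line the AAVS IL4 library was the highest of the 4. The ratio of IL4 to baseline was 2.65, 2.14, 5.05 and 1.14 in the AAVS pools and 0.976, 0.792, 1.47 and 0.546 in the CREBBP pools. After TMM scaling, NEAT1 in the CREBBP pools was higher with IL4 in 2 lines and lower in 2. Line 2 then had a log2 change of 0.23.

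The log2 fold change of NEAT1 with IL4 was 1.20 ± 0.34 in the AAVS pools (95% interval 0.39 to 2.00), with an unadjusted p of 0.0100 and an adjusted p of 0.162 by edgeR's quasi-likelihood test, so that it was not called there, whereas DESeq2 gave an adjusted p of 0.0127. In the CREBBP pools it was -0.12 (95% interval -0.63 to 0.39). With IL4, the difference between CREBBP and AAVS pools was -1.62 ± 0.50 (95% interval -2.78 to -0.45), with an adjusted p of 0.102, and without line 2 it was -2.06 with an adjusted p of 0.0214. The difference in IL4 response was -1.21 ± 0.42 (95% interval -2.13 to -0.30), with an unadjusted p of 0.0140 and an adjusted p of 0.248, and it was negative in 4 of 4 lines. At baseline the difference between CREBBP and AAVS pools was -0.36 (95% interval -1.03 to 0.30).

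Closest to NEAT1 in pattern were LINC-PINT (r = 0.98), a long noncoding RNA, GPR174 (r = 0.97), a lymphocyte receptor, and BACH1 (r = 0.97), a transcriptional repressor that is itself a reported target of miR-155. LINC-PINT had 106, 106, 122 and 139 CPM in AAVS baseline and 264, 173, 514 and 247 CPM in AAVS IL4, with line 3 highest. Its log2 fold change with IL4 in the AAVS pools was 1.17 ± 0.23, with an adjusted p of 0.0614 by edgeR's quasi-likelihood test.

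Few genes for paraspeckle proteins passed a test. The list of 15 proteins, with MATR3 present as 2 gene entries, gave 16 tested entries, of which 0 passed the test for IL4 in AAVS pools and 0 had an unadjusted p under 0.05 (median log2 fold change -0.17, against 0.01 over all genes tested). With IL4, 16 of 16 had a positive fitted value in CREBBP against AAVS pools (median 0.55, against -0.05 over all genes), 6 had an unadjusted p under 0.05, against 25.6% of all genes, and 1 was called, higher, against 0.965%. That gene was NUDT21, which takes part in the choice of polyadenylation site: it had 72.5, 222, 84.9 and 96.5 CPM in AAVS IL4 and 129, 236, 183 and 207 CPM in CREBBP IL4, and its log2 fold change was 1.06 ± 0.22, with an adjusted p of 0.0459 by edgeR's quasi-likelihood test.

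MALAT1, the nuclear speckle RNA, had the highest CPM of the 7 members in every library. Per kb, GAS5 was above it in line 2 of CREBBP IL4, at 173 against 110 CPM per kb. It had 3563, 1245, 3715 and 4486 CPM in AAVS baseline and 3723, 2158, 14957 and 4729 CPM in AAVS IL4. In CREBBP pools the levels were 2000, 1808, 1227 and 2945 CPM without and 2952, 1149, 1888 and 2705 CPM with IL4. The groups overlapped, and AAVS IL4 of line 3 stood above all other libraries.

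The fitted log2 fold change of MALAT1 with IL4 was 0.67 (95% interval -0.25 to 1.59) in AAVS pools and 0.15 (95% interval -0.35 to 0.64) in CREBBP pools. For CREBBP against AAVS it was -0.53 (95% interval -1.19 to 0.12) at baseline and -0.94 (95% interval -2.14 to 0.27) with IL4. None of these passed the test, and the lowest adjusted p among them was 0.291 by edgeR's quasi-likelihood test. The difference in IL4 response was -0.41 (95% interval -1.4 to 0.58). Line 3 carried much of the difference: without it the value for IL4 in AAVS pools was 0.24 and that for CREBBP against AAVS with IL4 was -0.38.

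The count of MALAT1 depends on how reads were divided between the strands. TALAM1, a gene on the opposite strand at chr11:65499312-65507432, covers 77.8% of the exon bases of MALAT1, and while the methods name a stranded library kit for the primary B cells and refer the lines to the same procedure, the strand setting of the counting is not given in the sources used here. TALAM1 had 8983, 2970, 4624 and 8441 CPM in AAVS baseline, 9554, 5713, 8792 and 8469 CPM in AAVS IL4, 3068, 4864, 2502 and 5438 CPM in CREBBP baseline and 2430, 3057, 4167 and 5643 CPM in CREBBP IL4. It was above MALAT1 in 14 of 16 libraries. MALAT1 took 27.1% to 63.0% of the sum of the pair, and over 50% only in AAVS IL4 of line 3 (63.0%) and CREBBP IL4 of line 1 (54.9%). With both genes summed, an alternative chosen after seeing the data, the log2 fold change was 0.50 for IL4 in AAVS pools and -0.93 for CREBBP against AAVS with IL4, with adjusted p-values of 0.511 and 0.211 by edgeR's quasi-likelihood test.

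**Figure D3:**
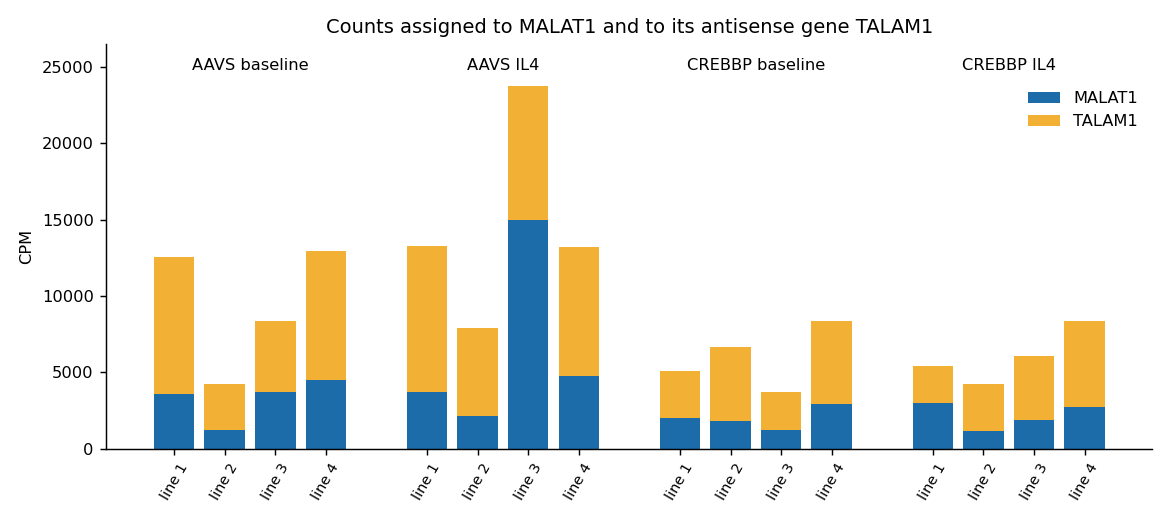
Stacked CPM assigned to MALAT1 (blue) and to its antisense gene TALAM1 (yellow) in each of the 16 libraries, in 4 groups of 4 lines. The sum runs from 3729 to 23749 CPM, and MALAT1 is the larger part in 2 libraries.

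Closest to MALAT1 in pattern were the ribosomal protein pseudogene RPL32P11 (r = 0.95), TUT7 (r = 0.93), an enzyme that adds uridine to RNA ends, and STX6 (r = 0.92), a vesicle protein. NEAT1 itself had r = 0.88 with MALAT1 and r = 0.84 with MIR155HG, values that share the 16 libraries. For the nuclear speckle and SR proteins 0 of 18 genes were called by edgeR in any comparison, and at most 4 had an unadjusted p under 0.05, with IL4 in CREBBP against AAVS, where 25.6% of all genes did. In AAVS pools with IL4 their median log2 fold change was -0.02, against 0.01 over all genes, and in CREBBP against AAVS with IL4 it was 0.26, against -0.05. Their most abundant members, SRRM2 and SON, build the speckle, and SRRM2 had a log2 fold change of 0.0010 with IL4 in the AAVS pools.

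MIR17HG, host of the miR-17 cluster, was a low-level transcript. It had 8.77, 21.9, 2.98 and 10.1 CPM in AAVS baseline and 16.8, 11.8, 26.5 and 16.4 CPM in AAVS IL4. In CREBBP pools the levels were 6.28, 9.76, 9.71 and 15.2 CPM without and 7.0, 11.2, 12 and 22.4 CPM with IL4. With IL4 it was higher in 3 of 4 AAVS pools and in 4 of 4 CREBBP pools, and all 4 groups overlapped. MIR17HG shares 2639 exon bases (20.5% of its exons) with a long noncoding RNA gene on the opposite strand. That gene was not among those counted, so part of the MIR17HG count could belong to it.

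The log2 fold change of MIR17HG with IL4 was 0.88 (95% interval -0.52 to 2.28) in AAVS pools and 0.35 (95% interval -0.06 to 0.77) in CREBBP pools, with adjusted p-values of 0.471 and 0.924 by edgeR's quasi-likelihood test. For CREBBP against AAVS it was 0.24 (95% interval -0.71 to 1.19) at baseline and -0.23 (95% interval -1.13 to 0.68) with IL4. The difference in response was -0.42 (95% interval -1.78 to 0.95). The fitted value in AAVS pools fell from 0.88 to 0.19 without line 3, where the ratio was 8.89, and was 1.44 without line 2, where it was 0.538. Closest in pattern were ZNF674-AS1 (r = 0.90), PRPF3 (r = 0.89), a splicing factor, and SEC23A (r = 0.86), a COPII coat protein.

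DLEU2, host of miR-15a and miR-16, differed little between groups. It had 30.9, 48.2, 23.2 and 39.6 CPM in AAVS baseline and 33.7, 34.3, 41.3 and 35.9 CPM in AAVS IL4. In CREBBP pools the levels were 21.6, 36.7, 30.6 and 52.5 CPM without and 23.0, 51.8, 46.4 and 54.5 CPM with IL4. It was higher with IL4 in 2 of 4 AAVS pools and in 4 of 4 CREBBP pools, and all groups overlapped. After TMM scaling it was higher with IL4 in 1 of 4 AAVS pools and still in 4 of 4 CREBBP pools.

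The log2 fold change of DLEU2 with IL4 was 0.017 (95% interval -0.49 to 0.53) in AAVS pools, with a sign that turned under 8 of the alternative settings, and 0.36 (95% interval -0.07 to 0.78) in CREBBP pools. For CREBBP against AAVS it was 0.08 (95% interval -0.43 to 0.58) at baseline and 0.48 (95% interval -0.22 to 1.19) with IL4, and the difference in response was 0.44 (95% interval -0.21 to 1.10). None of these values for DLEU2 had an adjusted p below 0.347 by edgeR's quasi-likelihood test. The lowest under an alternative setting was 0.144 by the same test, for CREBBP against AAVS with IL4 with all 16 libraries in 1 fit. DLEU2 shares 690 exon bases (5.39% of its exons) with TRIM13 on the opposite strand, so part of its count could belong to that gene. Closest in pattern were GOLT1B (r = 0.96), ECHDC1 (r = 0.95) and MCTS1 (r = 0.94), a translation factor.

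GAS5, the growth-arrest and snoRNA host transcript, had its highest group medians in the CREBBP pools. It had 305, 228, 180 and 257 CPM in AAVS baseline and 230.2, 343, 199 and 235 CPM in AAVS IL4. In CREBBP pools the levels were 213, 405, 416 and 304 CPM without and 254, 852, 283 and 302 CPM with IL4. With IL4 it was higher in the CREBBP pool than in the AAVS pool of all 4 lines, at ratios of 1.10, 2.49, 1.42 and 1.29, and CREBBP IL4 of line 2 stood above all other libraries.

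The log2 fold change of GAS5 in CREBBP against AAVS pools was 0.85 ± 0.34 with IL4 (95% interval 0.06 to 1.64), with an unadjusted p of 0.0385 and an adjusted p of 0.171 by edgeR's quasi-likelihood test, and 0.54 without line 2. At baseline it was 0.55 (95% interval -0.09 to 1.18). With IL4 the change was -0.015 (95% interval -0.58 to 0.55) in AAVS pools and 0.23 (95% interval -0.54 to 0.99) in CREBBP pools, and the difference in response was 0.34 (95% interval -0.72 to 1.4). GAS5 shares 132 exon bases with GAS5-AS1 on the opposite strand.

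Other hosts of snoRNAs had values on the same side as GAS5. In CREBBP against AAVS pools with IL4, 23 of 24 of these genes had a positive fitted value and 17 had an unadjusted p under 0.05, against 25.6% of all genes tested, but 0 were called. Their median was 0.74, against -0.05 over all genes. At baseline, 22 of 23 were positive and 8 had an unadjusted p under 0.05, against 12.8% of all genes, with a median of 0.41 against -0.03. With IL4 in the AAVS pools the median was -0.10 against 0.01. The most abundant of them, SNHG29 and SNHG5, had fitted values of 0.91 and 0.84 with IL4, with adjusted p-values of 0.158 and 0.137 by edgeR's quasi-likelihood test. SNHG5 was also the gene closest to GAS5 in pattern (r = 0.96), before SELENOF (r = 0.96) and POMP (r = 0.95), a proteasome assembly factor.

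PVT1, the neighbour of MYC at chr8:127794526-128187101 on the plus strand, had CPM ranges that overlapped between the groups. It had 49.0, 61.2, 44.4 and 83.7 CPM in AAVS baseline and 62.7, 79.3, 86.3 and 114 CPM in AAVS IL4. In CREBBP pools the levels were 52.4, 94.0, 47.2 and 113 CPM without and 54.7, 51.2, 49.5 and 69.5 CPM with IL4. IL4 went with a higher level in 4 of 4 AAVS pools, at ratios of 1.28, 1.3, 1.95 and 1.36, while in the CREBBP pools lines 2 and 4 were lower with IL4, at 0.544 and 0.613, and lines 1 and 3 were at 1.04 and 1.05. After TMM scaling PVT1 was lower with IL4 in 3 of 4 CREBBP pools and still higher in 4 of 4 AAVS pools.

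The log2 fold change of PVT1 with IL4 was 0.47 ± 0.17 in AAVS pools (95% interval 0.07 to 0.87), with an unadjusted p of 0.0267 and an adjusted p of 0.249 by edgeR's quasi-likelihood test. It was -0.32 (95% interval -0.70 to 0.07) in CREBBP pools, and the difference in response was -0.68 ± 0.24 (95% interval -1.21 to -0.16), with an unadjusted p of 0.0156 and an adjusted p of 0.258, negative in 4 of 4 lines. For CREBBP against AAVS it was 0.41 (95% interval -0.0026 to 0.83) at baseline, where PVT1 was higher in the CREBBP pool of all 4 lines, and -0.31 (95% interval -0.85 to 0.23) with IL4. MYC, which drives cell growth, had fitted values of -0.40 with IL4 in AAVS pools and -0.47 in CREBBP pools, with adjusted p-values of 0.406 and 0.924 by edgeR's quasi-likelihood test. Over the 15 tested neighbours of the 7 loci, 0 were called by edgeR in any comparison. Between 1 and 6 per comparison had an unadjusted p under 0.05, against 2.75% to 25.6% of all genes. APP, among these neighbours, had a log2 fold change of 5.95 with IL4 in the AAVS pools. Its unadjusted p was 0.00432 and its adjusted p 0.102 by edgeR's quasi-likelihood test. MRPL39, also among them, had a log2 fold change of 0.057 there. Closest to PVT1 were KIAA1671 (r = 0.81), HILPDA (r = 0.80), a hypoxia-induced lipid droplet protein, and the linker histone gene H1-10 (r = 0.80), the lowest r values among the 7 members.

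**Figure D4:**
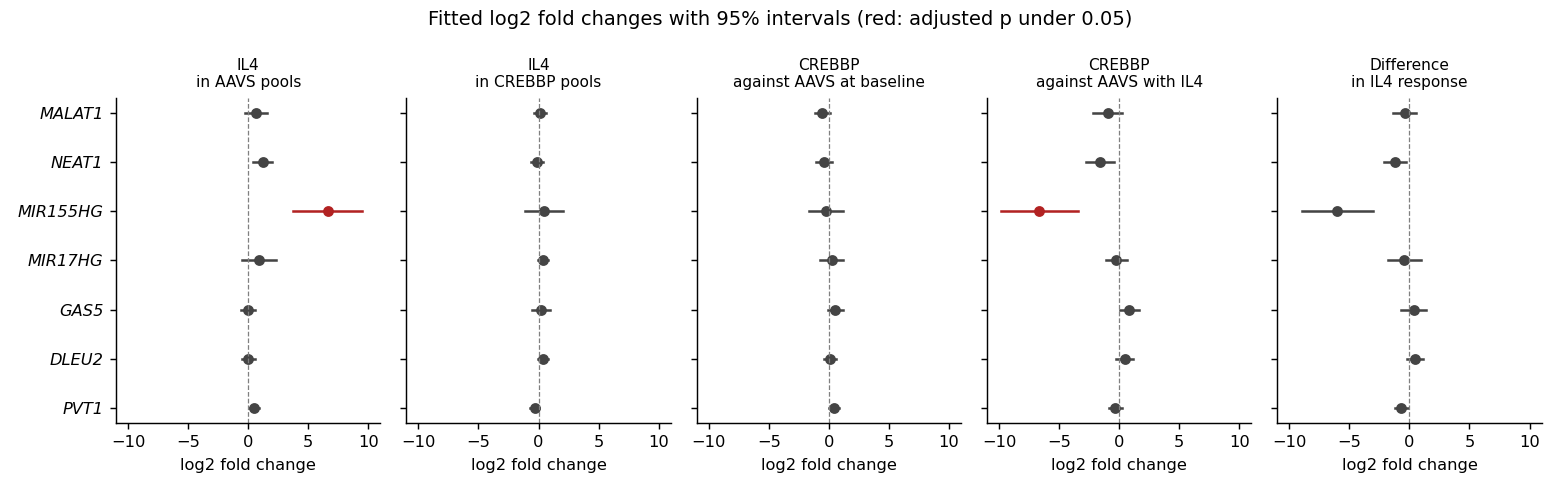
Fitted log2 fold change of the 7 RNAs in 5 comparisons; points are estimates and bars 95% intervals, red where the adjusted p is under 0.05. Only the MIR155HG estimates of 6.62 (IL4 in AAVS pools) and -6.64 (CREBBP against AAVS with IL4) are red; the MIR155HG interval for the difference in response, from -8.98 to -3.04, is not, and the other 6 RNAs have estimates between -1.62 and 1.20.

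Set side by side, 4 of 7 members (MALAT1, NEAT1, MIR155HG and PVT1) had a higher CPM with IL4 in all 4 AAVS pools, against 19.0% of 19646 genes, although on the TMM scale MALAT1 was higher in 3 of 4. With IL4 the same 4 had a lower CPM in CREBBP than in AAVS pools in all 4 lines, against 32.4% of genes, and GAS5 was higher in all 4, against 6.52%. After TMM scaling PVT1 was lower in 3 of 4 lines, with a log2 difference of 0.030 in line 1. These comparisons share the 4 AAVS IL4 libraries. In the CREBBP pools, MIR17HG and DLEU2 were higher with IL4 in all 4 lines, against 4.23% of genes. There, 0 of 18282 genes were called by edgeR's quasi-likelihood test, with 502 (2.75%) at an unadjusted p under 0.05 and 1 called by DESeq2. For CREBBP against AAVS at baseline 0 of 18936 genes were called, with 2422 (12.8%) at an unadjusted p under 0.05 and 514 called by DESeq2, and of the 7 members 0 had an unadjusted p under 0.05.

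**Figure D5:**
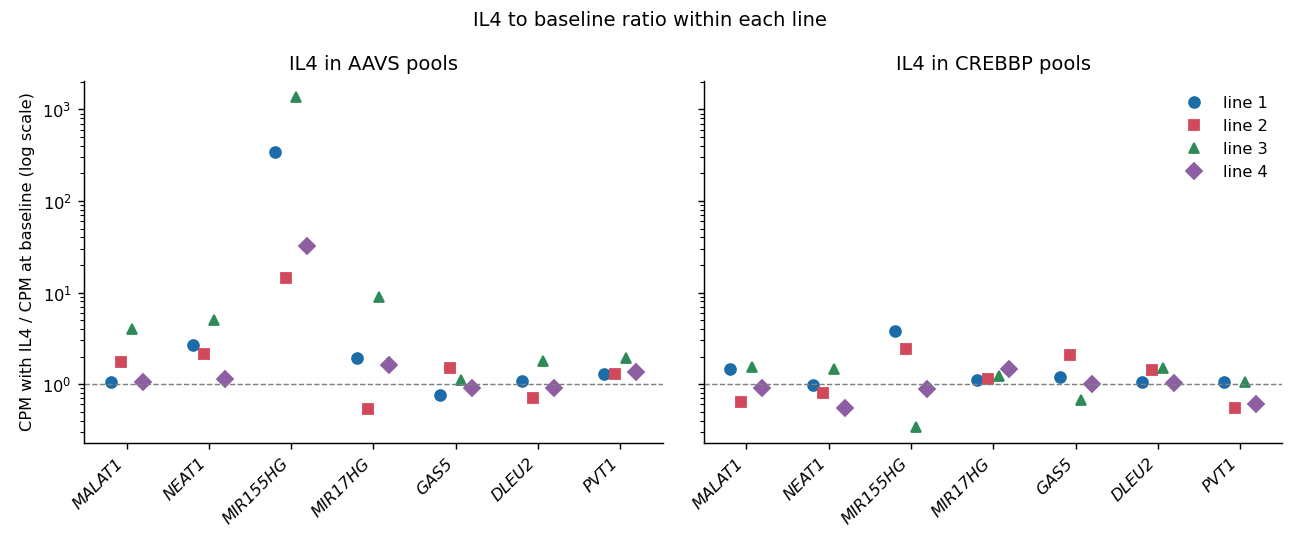
Ratio of CPM with IL4 to CPM at baseline in each line, on a log axis with the dashed line at 1, for AAVS pools (left) and CREBBP pools (right). MIR155HG lies between 14.6 and 1349 in AAVS pools and between 0.344 and 3.76 in CREBBP pools, and line 3 has the highest ratio in the AAVS pools for 6 of the 7 RNAs.

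Other microRNA hosts gave a further measure beside MIR155HG, MIR17HG and DLEU2. Of 18 listed hosts, 15 were tested for CREBBP against AAVS with IL4, and 2 were lower in the CREBBP pools, against 3.42% of all genes. MIR23AHG, host of a miR-23a cluster, had 56.5, 14.8, 125 and 25.6 CPM in AAVS IL4 and 1.03, 3.11, 0.951 and 2.29 CPM in CREBBP IL4, a log2 fold change of -4.36 ± 0.93 with an adjusted p of 0.0463 by edgeR's quasi-likelihood test. MIR34AHG, host of miR-34a, had 2.93, 2.03, 6.56 and 0.251 CPM in AAVS IL4 and 0.0161 CPM or 0 in CREBBP IL4, so that its fitted value of -7.72 depends on the prior count. Line 3 was highest and line 1 next in AAVS IL4 for both genes, as for the T-cell markers. The median of the list was -1.0, against -0.05 over all genes, and for IL4 in AAVS pools 0 of 15 were called, against 2.4% of all genes, and 5 had an unadjusted p under 0.05, against 16%, with a median of 0.91 against 0.01.

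Among 14 other long noncoding RNAs, 13 were tested, and LINC00963 was called higher with IL4 in AAVS pools, against 2.39% of all genes. It had at most 0.0245 CPM in AAVS baseline and 4.13, 1.62, 9.16 and 1.03 CPM in AAVS IL4, and its fitted value of 8.60 depends on the prior count. HCP5, an RNA of the MHC region, was lower in CREBBP than in AAVS pools with IL4, at 72.2, 28.8, 144 and 14.8 CPM in AAVS IL4 and 1.75, 0.174, 1.62 and 2.08 CPM in CREBBP IL4. Its log2 fold change was -5.20 ± 0.71, with an adjusted p of 0.0165 by edgeR's quasi-likelihood test, against 3.42% of all genes called lower.

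Reported targets of the hosted microRNAs were measured as messages. Of 15 miR-155 targets, HIVEP2, a zinc finger factor, rose with IL4 in AAVS pools from 47.2, 23.3, 53.9 and 60.8 CPM to 171, 49.9, 338 and 112 CPM. Its log2 fold change was 1.55 ± 0.28, with an adjusted p of 0.0488 by edgeR's quasi-likelihood test, against 2.39% of all genes called higher. The median of the 15 was 0.27 in that comparison, against 0.01 over all genes. With IL4, HIVEP2 (-1.71) and JARID2 (-1.60), a subunit of Polycomb complexes, were lower in CREBBP than in AAVS pools, and 3 of 15 targets had a positive fitted value. JARID2 had 59.9, 16.4, 102 and 31.2 CPM in AAVS IL4 and 20.8, 2.91, 17.9 and 15.8 CPM in CREBBP IL4. The 2 called of 15 stand beside 3.42% of all genes called lower.

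Of 13 miR-17 cluster targets, THBS1 (3.22), which encodes a secreted matrix glycoprotein, and ZBTB4 (1.99), a repressor that binds methylated DNA, rose with IL4 in AAVS pools, against 2.39% of all genes called higher. THBS1 was low throughout, at 0.0490 to 0.267 CPM in AAVS baseline and 0.236 to 3.87 CPM in AAVS IL4. ZBTB4 had 9.68, 6.72, 13.6 and 11.4 CPM in AAVS baseline, 51.6, 24.9, 104 and 22.1 CPM in AAVS IL4, 10.1, 6.85, 5.83 and 7.03 CPM in CREBBP baseline and 9.13, 2.48, 5.38 and 7.63 CPM in CREBBP IL4. Its 4 AAVS IL4 libraries lay above all others, and it was called for the difference in IL4 response, at -2.23 ± 0.38 with an adjusted p of 0.0335 by edgeR's quasi-likelihood test, against 0.62% of all genes called lower. With IL4, ZBTB4 (-2.61), BMPR2 (-2.06), a BMP receptor, and CDKN1A (-1.62), the cell cycle inhibitor p21, were lower in CREBBP than in AAVS pools, against 3.42% of all genes. Of the 9 miR-15/16 targets, CCND2 (-3.24), a D-type cyclin, was lower and CHEK1 (1.36), a checkpoint kinase, was higher in CREBBP than in AAVS pools with IL4, against 3.42% of all genes called lower and 0.965% called higher. CCND2 had 49.1, 9.52, 132 and 8.84 CPM in AAVS IL4 and 3.75, 1.34, 2.90 and 2.00 CPM in CREBBP IL4, and CHEK1 had 22.9, 80.9, 32.1 and 38.9 CPM against 61.6, 138, 62.1 and 87.7 CPM.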

How the data were processed

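The authors deposited 1 table per library with RSEM expected counts per gene, not normalized, held as whole numbers. Per the labels, reads were 151 bp paired-end, and the processing notes name cutadapt 2.3, FastQC 0.11.8, MultiQC 1.7, STAR 2.7.8a, RSEM 1.3.3 and GRCh38. The methods describe the steps for primary B cells and refer the lines to them: a stranded library kit, trimming with cutadapt, mapping with STAR, then counting with RSEM, whose strand setting is not given in the sources used here. Technical replicates of the primary cells were averaged by the authors. Whether this holds for the lines is not spelled out. The p-values weigh the fitted change within lines against counting error and how far that change varied from line to line. They do not weigh it against differences in level between lines. Of the 62714 listed genes, 99.88% were in GENCODE release 44, from which positions were taken, and 20930 had no symbol.

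CPM was computed from the total count of each library. Genes were filtered with filterByExpr, TMM factors were applied, and the test was that of edgeR 4.0.16 in R 4.3.3 (quasi-likelihood test, line as block, Benjamini-Hochberg adjustment, threshold 0.05), on the 8 libraries of a comparison, or on all 16 with a term for each pool for the difference in IL4 response. Intervals are 95% and come from the same fit. DESeq2 1.42.0, other scalings and filters, no block, all 16 libraries in 1 fit and leaving out each line were the alternatives. The code was tested on simulated data. Likeness is Pearson's r of log2 CPM (prior count 2) with line means removed. The 2 sources of error that the intervals cover are counting and how far the change within a line varied from line to line. Differences in level between lines were removed by the block. Each pool and treatment had 1 library, so variation between repeats of a pool was not measured.

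The members, the lists and the tests were chosen with earlier results of these data known. Named genes were the 7 members, the small RNA genes they host, at most 4 called genes per list and comparison by size of change, the most abundant genes of lists with none called, and the 3 genes most like each member. BACH1 and MYC values are given under the last 2 parts of this rule. APP, MRPL39 and single cell-type markers are named outside it. The replicate number stands for the cell line, and so pairs the libraries. Within lines, deviations from group means had median correlations of 0.409, 0.685, 0.227 and 0.596 for lines 1 to 4, the lowest being -0.0782 in line 3. Genes at 10 CPM or more in 1 line and under 0.5 CPM in another numbered 1 to 17 among lines 1, 3 and 4 and 149 to 235 between these and line 2. The tests, intervals and counts of lines treat all 4 lines as independent. Whether lines 1, 3 and 4 are independent of each other was not tested. GAS5 snoRNAs were not analysed here.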

Additional observations from a re-analysis of the deposited data

Results flagged for a closer look

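A library far from the other 3 of its group was found in 5 of 28 groups of 4 libraries (7 RNAs in 4 groups). The rule flags about 1 in 20 groups when values are normally distributed and groups independent. The groups here share lines and libraries, so the 5 cannot be set against that rate. NEAT1 in line 4 stood above the other lines in AAVS baseline at 1887 CPM, in CREBBP baseline at 1593 CPM and in CREBBP IL4 at 869.8 CPM, but not in AAVS IL4, where line 3 had 2153 CPM against 2157 CPM in line 4. Line 2 of CREBBP IL4 stood apart for GAS5 at 852 CPM and for MIR155HG at 3.43 CPM. In that library the targeted gene CREBBP was also lowest, at 69.9 CPM, and MYC had 76.9 CPM against 173 to 365 CPM in the other CREBBP IL4 libraries. It also had the highest share of 7SK and 7SL RNA, at 18.1% of counts (median of the 16 libraries 6.92%), and the lowest TMM factor, 0.725, and the part of these in its values was not tested. Without line 2 as a whole, that is without both its libraries in the comparison, the log2 fold change of GAS5 for CREBBP against AAVS with IL4 was 0.54 in place of 0.85. Removal of this library alone was not run.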

How the results depend on the processing

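The number of members called changed as follows. For IL4 in AAVS pools it was 1, and 0 with upper-quartile factors, library totals only or at least 10 counts in every library (adjusted p of MIR155HG 0.0563, 0.0560 and 0.0869 by edgeR, at log2 fold changes of 6.65, 6.67 and 6.60), 2 with DESeq2, and 0 to 1 with a line left out. For CREBBP against AAVS with IL4 it was 1, and 2 with library totals only, no filter, all 16 libraries in 1 fit or DESeq2, since NEAT1 then passed. It was 0 with at least 10 counts in every library, where MIR155HG was no longer tested, and 0 to 2 with a line left out. For the difference in response it was 0, and 2 with no filter, 1 with DESeq2 (MIR155HG at -6.02 and -6.26) and 0 to 1 with a line left out. Without the replicate block, the members called stayed 1, 0, 0, 1 and 0 in the 5 comparisons, and the genes called for the difference fell from 140 to 2.

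Leaving out a line gave MIR155HG 5.50 to 7.71 for IL4 in AAVS pools, -7.88 to -5.41 for CREBBP against AAVS with IL4 and -7.89 to -4.31 for the difference. Signs turned in 26 of 444 alternative values, all of changes of at most 0.44 with an adjusted p of at least 0.551, and the cause was not tested. For DLEU2 with IL4 in AAVS pools the values were -0.024 with median-of-ratios factors, -0.11 with no filter, -0.010 without the block, -0.063 with all 16 libraries in 1 fit, -0.024 with DESeq2 and -0.053 with MALAT1 and TALAM1 summed. For DLEU2 in CREBBP against AAVS at baseline they were -0.0051 with upper-quartile factors and -0.026 with library totals only, and for GAS5 with IL4 in AAVS pools 0.028 and 0.051. With a line left out, IL4 in AAVS pools gave -0.24 to 0.15 for DLEU2 and -0.25 to 0.11 for GAS5. IL4 in CREBBP pools gave -0.25 to 0.15 for NEAT1, -0.11 to 1.14 for MIR155HG and -0.20 to 0.59 for GAS5. CREBBP against AAVS at baseline gave -0.79 to 0.11 for MIR155HG, -0.30 to 0.73 for MIR17HG and -0.11 to 0.26 for DLEU2, and with IL4 -0.56 to 0.080 for MIR17HG. The difference gave -1.20 to 0.31 for MIR17HG and -0.0073 to 0.64 for DLEU2.

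Upper-quartile factors and library totals moved the median of all genes for CREBBP against AAVS with IL4 to -0.27 and -0.33, at baseline to -0.11 and -0.13 and for the difference to -0.10 and -0.16, so that NEAT1 at -1.88 with library totals stands against a lower median. Without a filter the medians were -0.19 at baseline and -0.35 with IL4. Over all genes, DESeq2 called 2062 for IL4 in AAVS pools, 4154 for CREBBP against AAVS with IL4 and 1100 for the difference, against 488, 859 and 140 by edgeR, and the fit without the block called 540 in place of 859 with IL4. Leaving 7SK and 7SL RNA out of the totals moved no mean CPM of a member by more than 1 SD. MIR155HG had 4 counts in its lowest library, which limits the precision of its fold changes.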
